A study of Mus musculus with 8 samples.

Results

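Of the 171865 peaks of 5-hydroxymethylcytosine (5hmC) mapped in mouse embryonic stem cells (ESCs), 8135 also overlapped a peak in mouse embryonic fibroblasts (MEFs), in adult brain and in adult liver. These peaks, called shared peaks here, made up 4.73% of the ESC peaks (exact 95% interval 4.63% to 4.83%). Shared peaks were chosen by the measured peak positions and scores: each is an ESC peak on a nuclear chromosome that overlapped, by at least 1 bp, a peak with a score of at least 80 in each of the other 3 lists. The other 163730 ESC peaks lacked such a partner in at least 1 of them. The score is the one the peak caller MACS gives each peak, taken as 10 times the negative log10 of the peak's p-value, and a score of 80 was the lowest in the ESC and liver lists. The membership, scores, widths and partner numbers of the shared peaks follow from that choice, so they are given as descriptions without a test.

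The cells were E14 ESCs, MEFs from C57BL/6 embryos of day 11 by the labels (the study's methods give a later embryonic day), and brain and liver of C57BL/6 mice aged 8 weeks. E14 ESCs transfected with a GFP hairpin as control (shGFP) or with one targeting Suz12 (shSuz12), a subunit of Polycomb repressive complex PRC2, gave 2 further 5hmC lists, which had no part in the choice. Both of these carried a transfected hairpin and both are the same ESC line. 5hmC was captured by glucosylation, periodate oxidation and biotinylation (GLIB) and sequenced, with 1 library per condition, so the spread between replicates is unknown and the intervals below cover counting error only. RNA-Seq of the shGFP and shSuz12 cells was not analysed here.

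5hmC is made from 5-methylcytosine by the Tet enzymes, mostly at CpG dinucleotides, and is read both as a step towards demethylation and as a mark in its own right. It lies mainly within genes and around enhancers, and brain is known for its high content. The peaks held by stem cells, fibroblasts, neural tissue and liver alike are places where the mark was called in cells of unlike origin.

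The lists differed in size, which bears on how many peaks could be shared. At a score of at least 80 they held 171865 peaks in ESCs, 130408 in liver, 74068 in MEFs, 33202 in brain, 74496 in shGFP and 23594 in shSuz12 ESCs. The weakest partner of a shared peak lay in brain for 4813 members (59.2%), in MEFs for 2568 (31.6%) and in liver for 754 (9.27%). With partners of any score, 25238 ESC peaks (14.7%) met all 3 other lists. On the other side, 22.5% of the score-80 brain peaks met a shared peak, against 10.8% in MEFs and 6.36% in liver. Read depth per library is not in the peak lists. Peak lists hold no expression, so the cell labels could not be checked by it, and 5hmC coverage of marker genes did not sort the lists either. In the brain list 1 of the 4 matched brain markers, Mbp, had over 1% of its span under score-80 peaks, and in the liver list 2 of 5 liver markers did, Apob at 42.2% and Cps1 at 24.9%, while Alb was at 0 in all 6 lists.

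The sequences below show what such places look like at the base level. They come from 4 of the genes that held the most shared peaks, and each is the centre of a stretch lying under peaks of all 4 cell types. They are read from the plus strand of mm9 (NCBIM37), 5′ to 3′, with every CpG, the dinucleotide that carries most 5hmC, in capitals.
Gm20388 and Gse1 (chr8:123096283-123096582): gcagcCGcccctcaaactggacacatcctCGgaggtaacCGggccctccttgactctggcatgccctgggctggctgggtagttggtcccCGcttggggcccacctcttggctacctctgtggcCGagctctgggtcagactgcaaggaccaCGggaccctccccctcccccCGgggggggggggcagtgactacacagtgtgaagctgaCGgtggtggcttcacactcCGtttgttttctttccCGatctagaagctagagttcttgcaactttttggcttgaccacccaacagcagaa
Agap1 (chr1:91445043-91445342): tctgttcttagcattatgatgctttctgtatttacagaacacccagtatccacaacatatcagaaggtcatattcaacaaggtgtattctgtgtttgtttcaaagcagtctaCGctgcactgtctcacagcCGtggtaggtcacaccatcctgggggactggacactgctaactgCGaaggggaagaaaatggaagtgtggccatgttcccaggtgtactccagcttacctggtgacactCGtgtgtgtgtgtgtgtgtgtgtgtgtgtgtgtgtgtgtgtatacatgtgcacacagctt
Tanc1 (chr2:59481884-59482183): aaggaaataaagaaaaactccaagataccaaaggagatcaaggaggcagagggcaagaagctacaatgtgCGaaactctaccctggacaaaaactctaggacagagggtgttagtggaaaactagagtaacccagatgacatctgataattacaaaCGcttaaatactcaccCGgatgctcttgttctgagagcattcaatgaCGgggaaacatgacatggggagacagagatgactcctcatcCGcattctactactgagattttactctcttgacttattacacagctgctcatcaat
Fto (chr8:94077281-94077580): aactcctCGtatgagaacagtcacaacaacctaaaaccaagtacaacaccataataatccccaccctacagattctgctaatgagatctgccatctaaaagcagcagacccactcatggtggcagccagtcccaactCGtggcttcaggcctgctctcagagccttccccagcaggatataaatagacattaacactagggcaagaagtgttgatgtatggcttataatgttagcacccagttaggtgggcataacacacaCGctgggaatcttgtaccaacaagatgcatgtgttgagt

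The window in Gm20388 and Gse1 held 10 CpGs and 81 of its 300 bases were coding exon. It is the centre of a 6555 bp common stretch within the widest ESC peak of all. The other 3 windows held 3 to 5 CpGs and no base of a coding exon. They lay 93.8 kb (Agap1), 31.9 kb (Tanc1) and 240.0 kb (Fto) from the start of their gene, and held 4, 5 and 3 CpGs.

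Each of those places carried a peak in every list. The Agap1 peak (chr1:91443664-91445969, 2306 bp) had an ESC score of 519, with 470 for MEFs, 289 for brain and 1206 for liver, and 1553 of its bases lay under all 4. The Tanc1 peak (chr2:59480385-59483422, 3038 bp) had scores of 806, 502, 262 and 306 in the same order of ESCs, MEFs, brain and liver. The Fto peak (chr8:94074701-94078244, 3544 bp) had an ESC score of 925, and its best partners scored 277 in MEFs, 137 in brain and 296 in liver. Scores depend on the depth of each library, so these values show that a peak was called and not which cell type had more 5hmC.

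Shared peaks were wide and had high scores, both of which the choice touches. Their median width was 1384 bp, from 364 to 38707 bp, against 833 bp for the other ESC peaks, a ratio of 1.66. Their median ESC score was 406 against 173. Of the 42967 ESC peaks with the lowest scores 1.60% were shared, and of the 42966 with the highest 11.2%. The best partner scores had medians of 189 for MEFs, 138 for brain and 451 for liver. The partners were wide too, with a median of 1566 bp in MEFs against 1194 bp for the other score-80 peaks there, 2059 against 1769 bp in brain and 1697 against 996 bp in liver.

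The overlap usually meant common bases. In 7691 shared peaks (94.5%) at least 1 base lay under peaks of all 4 lists, with a median of 830 bp, or 65.3% of the ESC peak. In the other 444 the partners covered different parts of the ESC peak. The shared peaks covered 14.2 Mb, 0.534% of the nuclear genome and 7.91% of the bases under ESC peaks, and 7.14 Mb of this was common to all 4.

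The 1609 members whose weakest partner scored from 80 to just under 90 had a median width of 1193 bp and 76.6% of them lay in genes. The 1927 ESC peaks left just outside, with a weakest partner from 70 to just under 80, had a median width of 1184 bp and 78.1% lay in genes.

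Most shared peaks lay inside genes. By midpoint, 6757 of 8135 (83.1%, 82.2% to 83.9%) were within a protein-coding gene, against 61.1% (60.9% to 61.4%) of the other ESC peaks, while protein-coding genes span 37.5% of the genome. The share was graded by how many of the other 3 lists held a partner, from 52.9% with none, over 66.2% with 1 and 74.0% with 2, to 83.1% with all 3. The difference was as large among narrow peaks, and under 1000 bp 82.8% of shared and 59.8% of other peaks were genic. Between 1000 and 2000 bp the shares were 81.3% and 62.0%, and between 2000 and 4000 bp 85.1% and 72.1%. Among peaks of 4000 bp or more, 90.3% and 88.5%, the intervals overlapped.

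**Figure D1:**
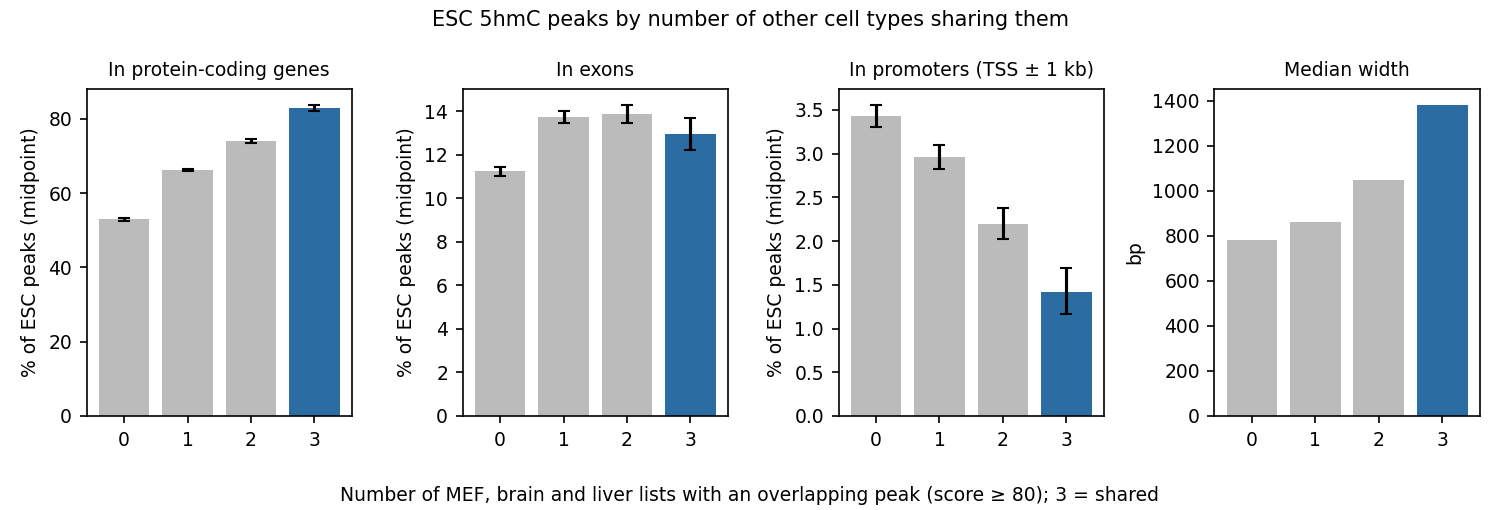
Share of ESC peaks with their midpoint in protein-coding genes, in exons and in promoters (percent, bars with exact 95% intervals) and their median width (bp), by the number of the MEF, brain and liver lists that held an overlapping peak with a score of at least 80; 3 means shared (blue). The genic share climbs from 52.9% to 83.1%, the promoter share falls from 3.43% to 1.41%, and the exon share stays between 11.2% and 13.9%.

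Most of the genic peaks were intronic. Introns held the midpoints of 70.1% of shared and 48.6% of other ESC peaks. Of the 6535 shared peaks that lay in exactly 1 protein-coding gene, 29.1% (28.0% to 30.2%) fell in the first intron, against 22.5% (22.3% to 22.8%) of other ESC peaks, and first introns make up 24.3% of transcript length. Introns further along held 54.1% and 54.2%, both below the 68.8% of transcript length that they make up. The peaks were spread along the whole gene, with between 8.32% and 12.9% of them in each of 10 equal parts of the gene span from start to end, and the last part holding the most, where other ESC peaks had 12.2%.

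Taken over all widths, exons took a similar share of both kinds of peak. Midpoints in exons made up 12.97% (12.2% to 13.7%) of shared and 12.6% (12.4% to 12.7%) of other ESC peaks, intervals that overlap, and those in coding exons 7.85% and 8.50%. Their density in exons relative to introns was lower, at 2.20 times the intron density (2.06 to 2.35) against 3.08 times (3.03 to 3.13). Internal exons held 6.55% of genic shared peaks and 10.5% of the genic others, and last exons 5.92% and 5.98%. The exon share moved with width, from 8.96% of shared peaks under 1000 bp to 28.1% of those of at least 4000 bp, with 11.8% and 28.7% for the other peaks. Counting any overlap instead of the midpoint, 30.8% of shared and 26.3% of other ESC peaks touched an exon, a count that a greater width raises.

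Promoters held few shared peaks. Midpoints within 1 kb of a protein-coding start site numbered 115, or 1.41% (1.17% to 1.69%), against 3.06% (2.98% to 3.15%) of other ESC peaks. The share was 3.43% for peaks with no partner, 2.96% with 1 and 2.19% with 2. A shared peak covered the start site of 102 of 22367 protein-coding genes (0.456%), and bases common to all 4 lists covered 37 (0.165%). ESC peaks of any kind covered 2629 (11.8%). Of the start sites under ESC peaks 3.88% were under shared ones, below the 7.91% of ESC peak bases that shared peaks held. By any overlap, 4.06% (3.64% to 4.51%) of shared and 4.86% (4.76% to 4.97%) of other ESC peaks touched a promoter, a smaller gap than by midpoint. Of the 1378 shared peaks outside genes, 553 (40.1%) lay within 10 kb of one, and 36.2% of the other intergenic ESC peaks did.

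Sequence content differed little. Shared peaks had a median of 1.91 CpGs per 100 bp against 1.70 for other ESC peaks, and a GC content of 50.1% against 48.9%. The CpG difference shrank with width, from 1.79 against 1.62 among peaks under 1000 bp to 2.15 against 2.15 among those of at least 4000 bp. In the central 300 bp of each peak both medians were 2 per 100 bp, where whole numbers of CpGs make ties likely. The means there were 2.28 for shared and 2.22 for other ESC peaks. Peaks with more than 3 CpGs per 100 bp were 3.68% of shared and 3.46% of other peaks.

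Shared peaks often lay near each other, to which the choice can add, since a wide partner can make several neighbouring ESC peaks shared. The 8135 shared peaks met 7474 score-80 brain peaks, and the spacing of an equal number of other ESC peaks was not measured. The nearest other shared peak was a median of 4.73 kb away, 31.8% had one within 1 kb and 50.8% within 5 kb. The nearest ESC peak of any kind was a median of 0.499 kb away, against 1.11 kb for other ESC peaks. With gaps of up to 5 kb, 4134 of the shared peaks formed 1493 runs, and 129 runs held at least 5 peaks. The run with the most peaks was in Mtss1, an actin-binding protein, with 18 shared peaks over 63.1 kb, followed by Ccdc85c with 17 over 63.7 kb and Capzb, the beta subunit of the actin capping protein, with 14 over 37.0 kb. Coro1c and Tle3 each had a run of 13.

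Relative to chromosome length shared peaks were densest on chromosome 19, at 1.71 times the genome average, then on 11 (1.54) and 8 (1.51), where ESC peaks of all kinds stood at 1.37, 1.67 and 1.78 times. The share of ESC peaks that were shared ranged over the autosomes from 3.42% on chromosome 7 to 5.90% on 19. The X chromosome held 9 shared peaks of 328 ESC peaks, all 9 of them in Mid1, and the Y chromosome 4 of 17. The ESC, MEF, brain and liver lists were all sparse on both chromosomes relative to length.

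Genes that held shared peaks were a minority. At least 1 lay in 2475 of 22367 protein-coding genes, or 11.1%, which is 16.7% of the 14786 genes with any ESC peak. Of these genes 1340 held 1 shared peak, 363 at least 5, 125 at least 10 and 29 at least 20. Genes with a shared peak were long, with a median span of 48.7 kb against 15.4 kb for all. Among genes under 10 kb 3.295% held one, and among those of 100 to 200 kb 29.7%. Per 100 kb of gene, however, the genes under 10 kb had 0.951 shared peaks and those of 100 to 200 kb 0.892, while genes of at least 200 kb had 0.432.

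The 25 genes with the most shared peaks held 777 of them (9.55%), and 24 of the 25 span over 100 kb. First stood Gm20388, a predicted gene model on chromosome 8 that spans 4435 kb and runs over many other genes, with 130 shared peaks of its 1516 ESC peaks, 64 of them also in another gene. Fgfr2, a fibroblast growth factor receptor, is likewise annotated over 3009 kb here, and 16 of its 22 shared peaks were also in other genes. Counts in these gene models are those of a region rather than of 1 gene.

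Among the transcription factors of this group, Foxn3, a forkhead repressor, had 36 shared peaks among 77 ESC peaks, all of them beyond 81.9 kb from its start. The ETS repressor Etv6 had 29 of 66, the forkhead factor Foxp1 26 of 76, the homeobox and zinc finger factor Zfhx3 26 of 107 and the Mediator subunit Med13l 26 of 86. Of the ESC peaks of Foxn3 46.8% were thus shared, against 24.3% in Zfhx3.

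Of the genes that act on RNA, Fto, which demethylates N6-methyladenosine in RNA, had 32 shared peaks of 115, the Musashi protein Msi2 31 of 134, the splicing regulator Mbnl2 23 of 45 and the translation factor Ctif 22 of 58. The other genes have various roles. The Arf regulator Agap1 had 34 of 120, the scaffold protein Tanc1 33 of 77, the tetraspanin Tspan9 29 of 55, the podosome adaptor Sh3pxd2a 28 of 83 and protein kinase C epsilon (Prkce) 27 of 119. Mtss1 had 26 of 52, the septin Sept9 25 of 71, Capzb 22 of 42, and the guanine nucleotide exchange factors Trio and Farp1 22 of 77 and 21 of 51. Apbb2, which binds the amyloid precursor protein, had 23 of 70, the peroxisomal import protein Pex14 22 of 62 and 4933407C03Rik 29 of 72. Across these genes, named for their number of shared peaks, the share of ESC peaks that were shared ran from 5.76% in Fgfr2 to 52.7% in Tspan9.

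**Figure D2:**
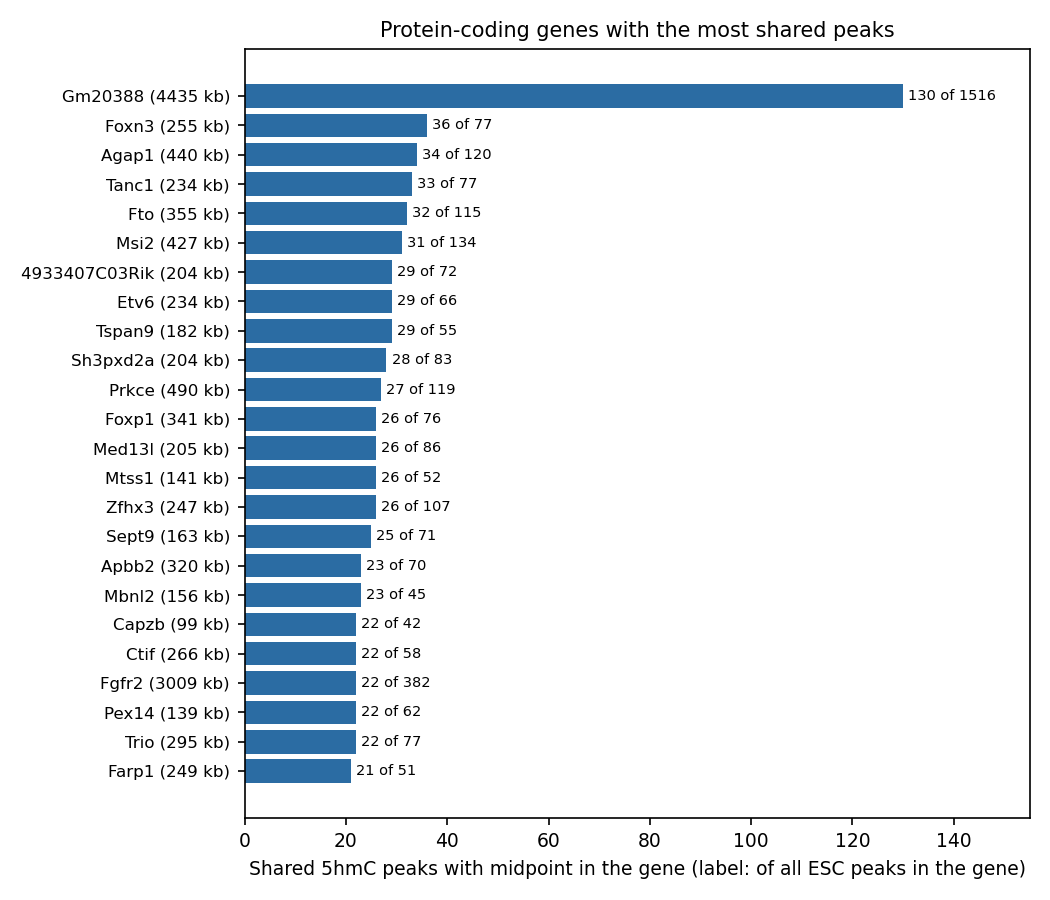
Number of shared 5hmC peaks with their midpoint in protein-coding genes among the 25 that held the most (bars), with the annotated span in kb after the gene name and the number of all ESC peaks in the gene at the bar end. Gm20388, at 130 of 1516, is a 4435 kb model that contains other genes; the rest lie between 21 and 36 shared peaks.

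The lists did not cover these genes alike. In Foxn3 the score-80 peaks covered 34.9% of the gene in ESCs, 38.6% for MEFs, 42.3% for brain and 79.1% for liver, and in Etv6 the figures were 30.0%, 38.6%, 47.8% and 79.5%. Zfhx3 had 63.9%, 51.6%, 20.7% and 70.3%, with the lowest coverage in brain. Tspan9 had 32.9%, 39.4%, 45.3% and 51.6%. Liver had the highest coverage at all of these, and ESCs the lowest at Foxn3, Etv6 and Tspan9. Other leading genes differed. Agap1 was highest in brain, at 45.0% against 37.7% in liver, and Tanc1 in MEFs, at 47.1% against 39.6% in liver. In Gm20388 the order was another, at 53.8% for ESCs, with 19.0% in MEFs, 14.6% in brain tissue and 30.2% in liver. The lists differ in size at this score, so coverage does not show which cell type had more 5hmC.

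**Figure D3:**
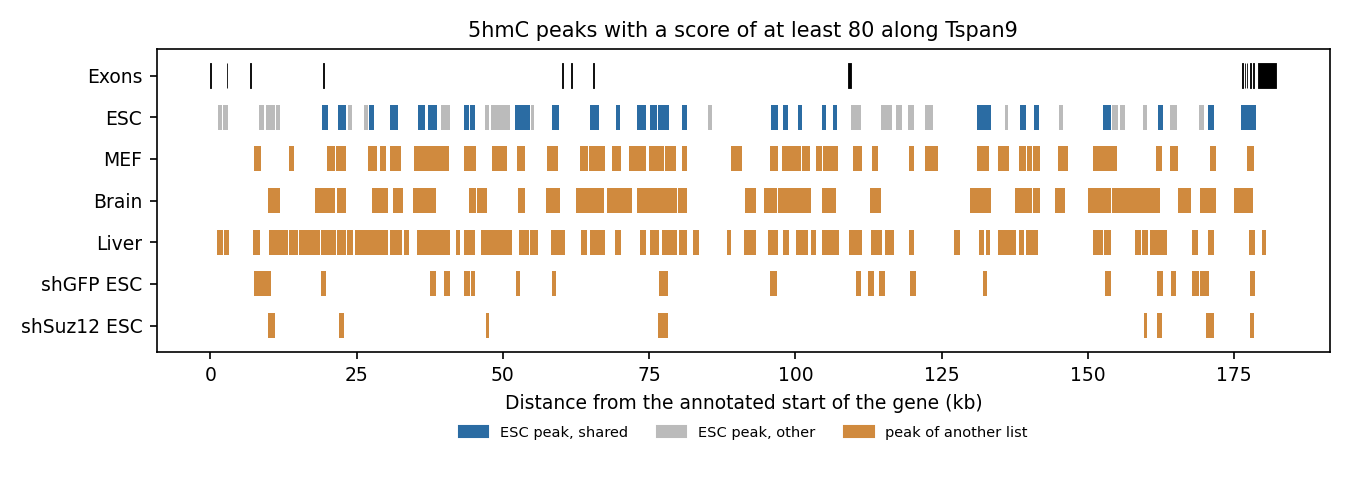
5hmC peaks with a score of at least 80 along Tspan9, by distance from its annotated start in kb, for the 6 lists, with its exons above; shared ESC peaks are blue, other ESC peaks grey and peaks of the other lists orange. The 29 shared peaks run from 19.6 to 177.4 kb from the start by midpoint.

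Per length of gene a different set led. Tle3, a Groucho corepressor, had 14 shared peaks of 20 ESC peaks in 46.1 kb, or 3.04 per 10 kb. Adcy6, an adenylyl cyclase, followed with 2.83 (5 of 8), Ccdc85c with 2.46 (17 of 23) and the kinase Akt1 with 2.37 (5 of 7). Tbc1d16, a Rab GTPase activator, had 2.34 (20 of 31), Hs1bp3 2.30 (7 of 10), the Wnt feedback inhibitor Axin2 2.30 (7 of 13), the sorting nexin Snx18 2.27 (6 of 9), D19Wsu162e 2.23 (13 of 26) and Capzb 2.22 (22 of 42). In Tle3 the score-80 peaks covered 53.2% of the gene in ESCs, 55.2% for MEFs, 71.3% for brain and 80.1% for liver. Adcy6 had 90.1% for ESCs, with 25.6% in MEFs, 54.1% in brain tissue and 87.2% in liver.

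The ESC peaks with the most bases under all 4 lists, summed over separate stretches, were led by a single peak of 38707 bp at chr8:123069060-123107766 in Gse1, inside the Gm20388 model, with 21084 such bases, of which the longest unbroken stretch was 6555 bp. It met 14 MEF, 11 brain and 7 liver peaks, and its score was 3100 in ESCs and in liver. Next came 3 peaks in Sfi1, a centrosome protein, at chr11:3051967-3064340, chr11:3028703-3041073 and chr11:3070235-3080450, with 12360, 10451 and 9593 common bases. The fifth lay in Mid1 on the X chromosome (chrX:166420888-166429862, 7841 common bases). The Sfi1 peaks had 0.849, 0.986 and 0.930 CpGs per 100 bp, under the 1.22 of the lowest 5% of shared peaks, while the Gse1 peak had 2.51 and the Mid1 peak 4.03. In the Mid1 peak 18.3% of the stretches of 24 bp occurred more than once within the peak, against 1.38% or less in the other 4, and that share was over 10% in 39 shared peaks (0.479%). Scores of 3100 stood at all 3 Sfi1 peaks in ESCs, MEFs, liver and shGFP ESCs. Whether repeats or mapping had a part in these peaks was not tested. A score of 3100 or more was given to 175 shared (2.15%) and 128 other ESC peaks (0.0782%).

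Gene lists by function placed the shared peaks further. The list of transcriptional corepressors, which also counts the coregulators Zmiz1 and Zmiz2, had at least 1 shared peak in 12 of 23 genes (52.2%, 30.6% to 73.2%). It had 4.35 shared peaks per 100 kb, and the values for all protein-coding genes were 11.1% and 0.687. Zmiz1 held 17, the corepressor Tle3 held 14 and Nrip1, which represses nuclear receptors, held 10. The TGF-beta and SMAD list had 13 of 25 (52.0%) and 4.01 per 100 kb. The repressor Ski and the receptor-driven factors Smad1 and Smad3 each held 13, and Smurf1, the ligase that degrades SMADs, held 12. The canonical Wnt list, without ligands, had 15 of 32 (46.9%) and 3.76 per 100 kb, with 18 in Tcf7l2 and 8 in Tcf7l1, the DNA-binding factors of the pathway, 7 in Axin2 and 3 in the coactivator Bcl9. The insulin, PI3K and mTOR list had 13 of 27 (48.1%), with 15 in the transcription factor Foxo3, 9 in Rptor, 7 in Pik3r1 and 5 in Akt1, at 2.66 per 100 kb.

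Semaphorins and plexins, ligands and receptors of axon and vessel guidance, had 16 of 29 genes (55.2%), with 6 in Plxnd1 and 3 each in Plxnb1, Sema3f and Sema4c. Their 0.936 per 100 kb compares with 0.687 for all protein-coding genes. The DNA methylation list had 6 of 17 (35.3%), among them Zbtb38 with 7, Mbd2 and Tet3 with 5 each and Dnmt3a with 3, at 2.71 per 100 kb. Tet3 makes 5hmC and Dnmt3a sets the methylation that it is made from. The other Tet enzymes, Tet1 with 23 ESC peaks and Tet2 with 9, held no shared peak. Nor did the methyltransferases Dnmt1, with 18 ESC peaks, and Dnmt3b, with 2. Chromatin remodellers and histone modifiers had 21 of 62 (33.9%), led by the remodeller subunit Arid1b with 20 and the remodeller Chd7 with 19. Kdm2b held 6 and Smarca2 5, and the list had 1.37 per 100 kb. Nuclear receptors had 10 of 40, with 13 in Ppard, 7 in Rxra, 4 in Rora and 2 in Rara. Their 0.676 per 100 kb was near the 0.687 of all protein-coding genes. The Notch list had 5 of 20, its receptor Notch2 holding 11, the coactivator Maml3 6, and the ligand Jag1 and Maml1 1 each, at 1.69 per 100 kb.

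The remaining lists had smaller shares, and the lowest were in short genes. Of 1087 olfactory receptors 1 held a shared peak (0.0920%), Olfr71, at 0.0528 per 100 kb, and 40 held any ESC peak. Of 76 cytosolic ribosomal protein genes 1 did, Rps28 (1.32%), at 0.290 per 100 kb, and 13 held any ESC peak. Zfp zinc finger genes had 29 of 344 (8.43%, 5.72% to 11.9%), led by Zfp516 with 19 and Zfp704 with 16, then Zfp710 with 5 and Zfp362 with 4, but at 0.972 per 100 kb they stood above the 0.687 of all genes. Kinesins and myosins had 16 of 71 (22.5%), with 12 in Myh9, 11 in Kif13a, 5 in Myo1e and 3 in Myo18a, at 0.716 per 100 kb. Collagens and laminins had 11 of 54 (20.4%), with 11 in Lamc1, 6 in Col4a2 and 2 each in Col27a1 and Col4a1, at 0.431 per 100 kb. The median gene span was 3.24 kb in the ribosomal list, 0.963 kb in the olfactory list and 76.6 kb in the corepressor list, so the lists differ in length as well as in function. It was 56.5 kb for nuclear receptors, 53.4 kb for kinesins and myosins and 110.6 kb for collagens and laminins. Among all genes of 50 to 100 kb 21.1% held a shared peak, and among those of 100 to 200 kb 29.7%. Per 100 kb the first 2 of these lists were near all genes, and collagens and laminins were below.

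**Figure D4:**
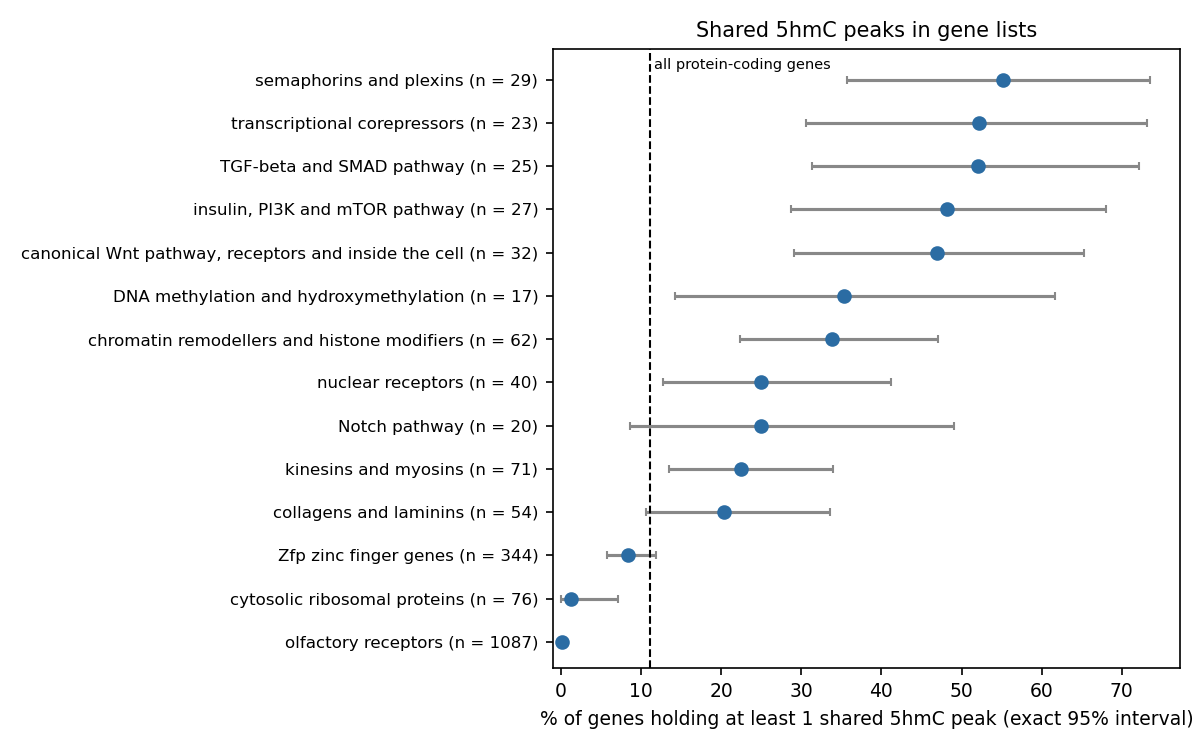
Percent of the genes of each list that held at least 1 shared 5hmC peak (points) with the exact 95% interval (lines), number of genes in brackets; the dashed line is all protein-coding genes, 11.1%. Semaphorins and plexins, the corepressor list and the TGF-beta list stand above 50%, and olfactory receptors at 0.0920%. The line is not matched to the gene length of each list.

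The 2 hairpin lists, which the choice did not use, show how the same places fared in other ESC libraries. Of the shared peaks 6273 (77.1%, 76.2% to 78.0%) overlapped a peak in shGFP ESCs, against 56.4% of all ESC peaks and 55.3% of the others. In shSuz12 ESCs 5660 (69.6%, 68.6% to 70.6%) did, against 47.1% of all ESC peaks and 46.0% of the others. Both lists met 59.6% of shared and 32.6% of other peaks, and neither met 12.9% and 31.2%. With only the 33202 best peaks of each cell type's list, shGFP peaks met 95.7% of shared and 92.1% of other ESC peaks. For shSuz12 peaks the shares were 89.9% and 82.6%, so both gaps were smaller.

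Both shares climbed with width. Under 1000 bp 52.5% (50.5% to 54.5%) of shared peaks met an shGFP peak, against 43.7% (43.4% to 44.0%) of the others, and 44.5% against 34.4% met an shSuz12 peak. From 1000 to 2000 bp the shares were 80.8% and 74.98% for shGFP, and 71.5% and 64.6% for shSuz12. From 2000 to 4000 bp they were 97.3% (96.4% to 98.0%) and 95.1% (94.6% to 95.5%) for shGFP, while for shSuz12 the intervals of 92.0% (90.7% to 93.2%) and 90.4% (89.7% to 91.0%) overlapped. From 4000 bp on nearly every peak was met in both lists, and the intervals overlapped for both.

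**Figure D5:**
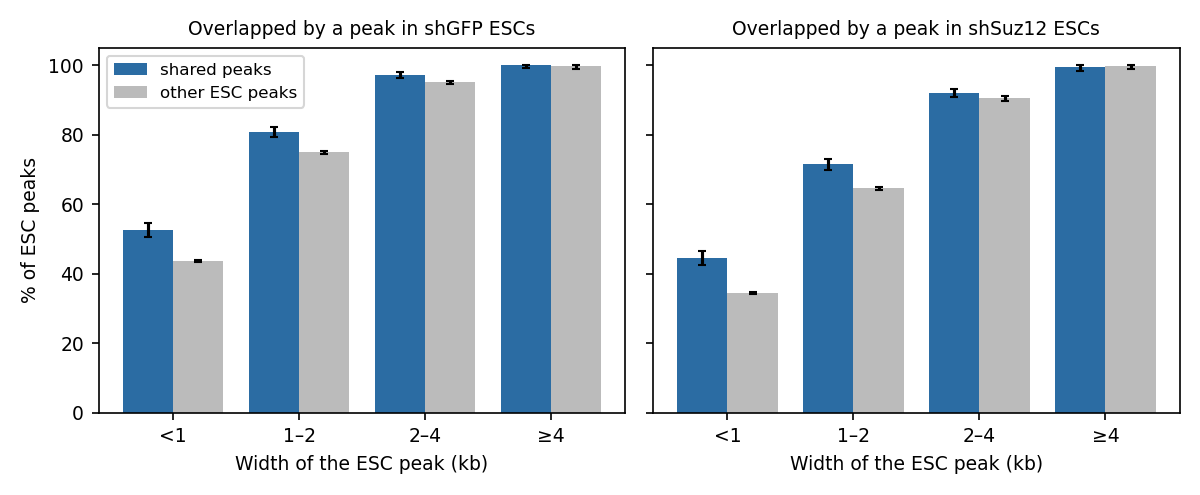
Percent of shared (blue) and other (grey) ESC peaks that overlapped a peak in shGFP ESCs (left) and in shSuz12 ESCs (right), by width of the ESC peak in kb, with exact 95% intervals. Shared peaks stand above the others in the 3 classes under 4 kb, by 52.5% to 43.7% for shGFP in the narrowest, and both kinds are near 100% in the widest.

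Of the shared peaks that met an shGFP peak, 1423 (22.7%, 21.7% to 23.7%) met none in shSuz12 ESCs, against 41.2% (40.8% to 41.5%) of the other ESC peaks. Among those in promoters the figures were 20 of 102 (19.6%, 12.4% to 28.6%) and 39.2% (37.5% to 40.9%). Neither comparison was split by peak width or score, and shared peaks were wider (median 1384 against 833 bp) and scored higher (406 against 173). In the leading genes the shared peaks met in the hairpin lists numbered 119 and 117 of 130 in Gm20388 and 32 and 28 of 34 in Agap1 for shGFP and shSuz12. Foxn3 had 25 and 19 of 36, Farp1 11 and 17 of 21 and Prkce 13 and 17 of 27. The shSuz12 list reaches down to lower scores than the shGFP list, with a lowest score of 30.3 against 50.02. At a score of at least 80 in both, shGFP peaks met 62.7% of shared and 36.5% of other ESC peaks, and shSuz12 peaks 28.7% and 11.0%. With 1 library each, depth and the knockdown cannot be told apart.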

How the data were processed

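5hmC was measured by GLIB-Seq in 6 conditions with 1 library each. According to the methods and the submitters' processing notes, the authors called bases with CASAVA 1.8, mapped reads to mm9 with Bowtie 0.12.7 (unique hits, up to 2 mismatches), removed redundant reads and called peaks per library with MACS 1.4.1. The deposited lists give each peak's position and a MACS score, which on MACS output equals the negative log10 p-value multiplied by 10. The control and threshold of each list are not given in the sources used here. The lists start at different scores (80 for ESCs and also for liver, 30 for MEFs and for brain, 50.02 for shGFP, 30.3 for shSuz12), and scores depend on depth, so they are not comparable in size between libraries.

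Peaks on nuclear chromosomes were overlapped by interval arithmetic (numpy 2.4.6, pandas 2.3.3, tested on simulated intervals) and placed by midpoint on the NCBIM37 annotation. Promoters are start sites ± 1 kb, and segments of protein-coding genes were merged before counting. First introns and exons refer to the protein-coding transcript with the most exonic bases. CpG content was read with pysam 0.24.0. Shares carry exact Clopper-Pearson 95% intervals (scipy 1.17.1), which treat peaks as independent although neighbours are not, and no test between conditions was made. Peak lists carry no read counts, so depth is unknown. Members and 15 gene lists were chosen with earlier results of these data known. Named are the 25 genes with the most shared peaks, the 10 with the most per 10 kb among those with at least 5, the 5 peaks with the most common bases and up to 4 members of each list. Coro1c was named with the runs of most peaks after its values were seen, and so were Tet1, Tet2, Dnmt1 and Dnmt3b with the DNA methylation list. Map2 matched no annotated symbol, nor did Kat6a and Kat6b of the chromatin list. Of these, 1 gene, 1 gene list and part of the sequence are not reported here.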

Additional observations from a re-analysis of the deposited data

How the results depend on the processing

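No paired analysis was possible because no condition has more than 1 library, and for the same reason no replicate could be left out. Of 74 alternatives 18 stayed within the interval (counts within 1.5 times), 53 moved and 3 turned the direction against the other ESC peaks. All 3 concern the exon share, which was 13.1% against 13.2% of the other peaks with a score of at least 100 in all 4 lists, 15.7% against 19.4% with equal numbers of peaks per list (the 33202 best of each) and 8.96% against 11.8% among peaks under 1000 bp, so the direction of this difference depends on the setting. With at least 50% of both peaks overlapping, 1818 peaks (1.06%) of median width 1631 bp in 1009 genes remained shared, with 78.5% in genes, 14.6% in exons, 2.15% in promoters, an exon to intron ratio of 2.71, 1.96 CpGs per 100 bp, 88.1% meeting shGFP and 78.0% shSuz12. Requiring a base common to all 4 lists gave 4.48% and 1356 bp. Without a score floor the values were 25238 (14.7%), 1162 bp, 5835 genes, 77.8%, 13.8%, 2.15%, 2.56, 1.82, 71.4% and 62.9%. A score of at least 100 gave 5086 (3.54%), 1525 bp, 85.4% in genes, 1.94 CpGs, 80.7% and 73.4%. Equal numbers gave 2180 (6.57%), 2197 bp, 989 genes, 85.9%, an exon to intron ratio of 2.66 and 2.01 CpGs against 1.98. There 95.7% of shared peaks met shGFP and 89.9% shSuz12, against 92.1% and 82.6% of the other peaks, smaller gaps than in the main setting. Counting any overlap with a segment gave 84.2% in genes, 30.8% in exons and 4.06% in promoters. The exon to intron ratio was then 4.50, against 5.29 for the other peaks. Peaks that touched both segments counted for both, so this ratio is not comparable with the one by midpoint. All annotated genes gave 84.7%. Promoters of 500 bp gave 0.713% and of 2 kb 4.20%. The central 300 bp gave 2 CpGs per 100 bp. With a score of at least 80, shGFP peaks met 62.7% and shSuz12 peaks 28.7%. Chosen after seeing the data were the genic share without the 2 gene models of over 3 Mb (82.2%) and the shares under 1000 bp (52.5% for shGFP and 44.5% for shSuz12). The genic, promoter, exon to intron, shGFP and shSuz12 differences from the other ESC peaks kept their direction under those of the alternatives that were run for them, but at 50% overlap the interval of the exon to intron ratio (2.37 to 3.10) included the 3.03 of the other peaks.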
